A study of Mus musculus with 9 samples.

Results

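Potassium channel subunits were described here in mouse cortical neurons grown without and with a peptide scaffold. The members were all protein-coding genes whose symbols carry the channel prefixes Kcna to Kcnv followed by a number, together with the auxiliary prefixes Kcnab, Kcnip, Kcnmb and Kcne and with Kcnma1. They numbered 93 of the 54232 genes listed in the count files. RNA sequencing covered 9 libraries of wild-type CD1 cortical neurons, CD1 being an outbred mouse stock, in 3 groups of 3 repeats. The control libraries carry the name PDL, which the labels do not spell out. The PA libraries carry the name IKVAV, a laminin sequence, and PA denotes the peptide amphiphile, whose lipid-tailed peptide molecules pack into nanofibres. The PA + PS2 libraries carry the name IKVAV plus PEDOT-S-OH, which refers to a conducting polymer. Because peptide amphiphile is also the treatment entered for the controls, the groups follow the sample titles. No age, culture time, dose or agent shared by all groups is given, and the labels do not say whether repeats were separate cultures, so the spread that enters the p-values may be technical.

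Potassium channels let potassium leave or enter the cell down its gradient and so set the resting potential, end action potentials and limit repetitive firing. Voltage-gated (Kv) channels open on depolarisation, and calcium-activated channels (BK, SK) open when calcium enters. Inward rectifiers (Kir) pass current into the cell more easily than out of it, and two-pore-domain (K2P) channels carry the background leak. Kv, BK, SK and Kir channels assemble from 4 pore-forming subunits, and auxiliary subunits (Kv beta, KChIP, BK beta and KCNE proteins) change their gating or their transport to the membrane.

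The selectivity filter, the narrowest part of the pore, is the feature that names this superfamily, and its codons are shown because they separate the pore-forming genes from the auxiliary ones. The coding sequence of each member was searched in frame, on the coding strand, for the 4 codons NTN, GGN, TAN and GGN in a row, or the same with TTN as the third, where N is any base. Of 77 pore-forming and modifier members 75 held a match, and of 16 auxiliary members 0 did, while 5.34% of 21588 protein-coding genes held one. No match was found in Kcnk1 and Kcnk7, and of the 14 K2P genes 11 held 2 matches. The sequences below are from GENCODE M21 coding sequences (mm10), written 5′ to 3′ with the matched codons in capitals and 15 bases on either side.
Kcnc1: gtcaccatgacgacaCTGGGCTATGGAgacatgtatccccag
Kcna3: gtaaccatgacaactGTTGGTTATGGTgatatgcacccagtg
Kcnma1: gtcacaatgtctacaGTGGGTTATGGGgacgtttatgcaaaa
Kcnh2: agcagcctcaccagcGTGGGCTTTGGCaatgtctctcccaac
Kcnk9, site 1: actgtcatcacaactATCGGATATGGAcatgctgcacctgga
Kcnk9, site 2: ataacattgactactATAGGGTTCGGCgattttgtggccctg
The Kcnc1 stretch lies at chr7:46427961-46428002 on the plus strand, in exon 2 of 4, and that of Kcna3 at chr3:107037599-107037640 on the plus strand, in exon 1 of 1. The Kcnh2 stretch and the second of Kcnk9 have the TTN codon, and the other stretches shown have TAN.

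Total counts ran from 20746851 to 27237398 per library, and the members took 0.216% to 0.247% of them. Levels are given in CPM, the count as a share of the scaled library total, and before scaling 1 CPM corresponds to 20.7 to 27.2 reads. The culture carried its neuronal markers in every library, with 6403 to 7592 summed CPM for 10 neuronal genes, and also markers of other cells. The 9 astrocyte markers summed to 173 to 289 CPM in control, 231 to 269 CPM in PA and 177 to 217 CPM in PA + PS2, and the 9 markers of pericytes and fibroblasts to 135 to 195, 89.3 to 159 and 11.9 to 57.0 CPM, with none of these markers at 0 in every library. In bulk RNA, fewer cells of a type and less RNA per cell cannot be told apart.

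Among the channel transcripts described gene by gene, Kcnd2 had the highest level. Levels between genes are given as CPM per kb of exon. Kcnd2, which forms fast-inactivating A-type Kv4 channels in dendrites, stood at 15.9 ± 1.34 CPM per kb (SD, n = 9) and held 5.21% of the summed level of all members. Its libraries lay at 90.0, 78.5 and 88.0 CPM in control, 76.1, 76.3 and 92.5 CPM in PA and 79.7, 72.8 and 83.4 CPM in PA + PS2, and the groups overlapped. Of the 19 neighbouring pairs among the 20 highest genes 18 had overlapping ranges over the 9 libraries, so the order of such neighbours is not settled by these data. Genes further apart in the order were not compared in this way.

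Other abundant genes came from several subfamilies. Kcnc1, a Kv3 subunit that allows fast firing, stood at 12.7 ± 1.20 CPM per kb, and Kcnq5, a subunit of the M-current, a slow Kv7 current that restrains repetitive firing, at 12.2 ± 1.43 CPM per kb. The leak channel genes Kcnk2 and Kcnk10, which encode the mechanosensitive TREK channels, stood at 11.2 ± 1.21 and 11 ± 0.769 CPM per kb. Kcnd3, another A-type subunit, stood at 10.3 ± 1.10 CPM per kb, Kcna3, a Kv1 subunit, at 9.84 ± 2.00, and Kcnk9, an acid-sensitive TASK leak channel, at 9.29 ± 2.73. Kcnf1, an electrically silent subunit that modifies Kv2 channels, stood at 9.17 ± 0.731 CPM per kb. The 10 highest genes held 42.98% of the summed level and the 20 highest 66.7%, and the same 20 genes led when levels were scaled by the longest transcript.

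**Figure D1:**
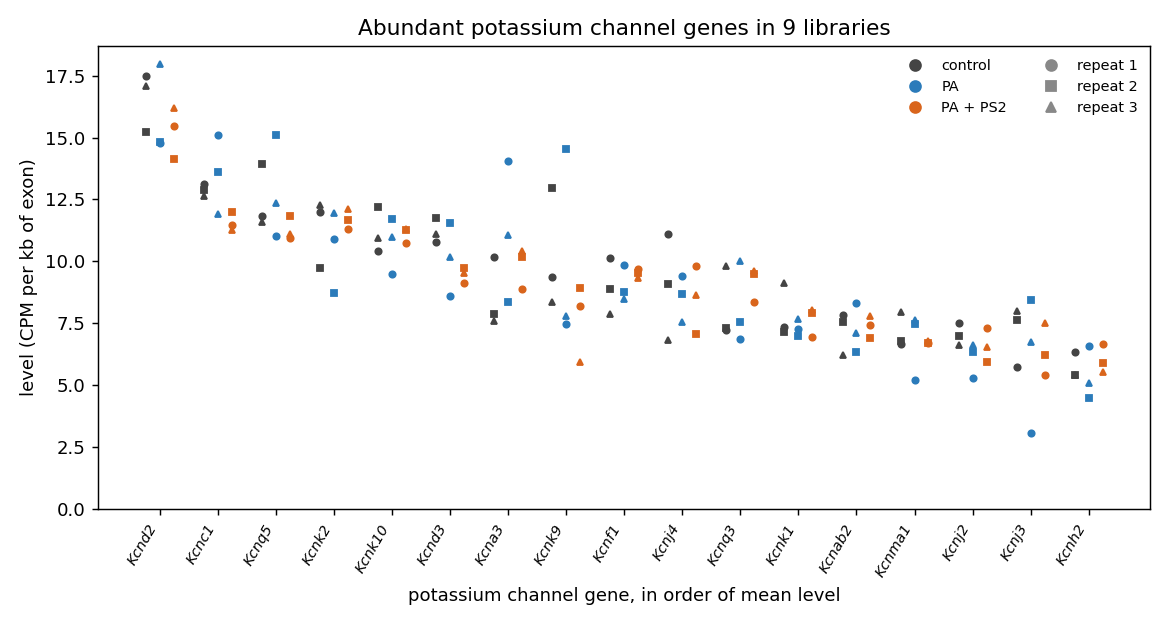
Level in CPM per kb of exon (vertical axis) of potassium channel genes described here that were among the 20 with the highest mean over 9 libraries, 1 point per library, coloured by group and shaped by repeat. Kcnd2 lies between 14.1 and 17.95 CPM per kb, and the groups of a gene mostly overlap.

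By subfamily, Kv7 held the largest share of the summed level, 18.2% with a range of 17.8% to 18.8% over the 9 libraries, from only 5 genes. Within it Kcnq3, a subunit of the M-channel, stood at 8.47 ± 1.26 CPM per kb, while Kcnq1, the cardiac and epithelial subunit, had 7 reads over all libraries. The 14 K2P genes held 15.4%, the 15 inward rectifiers 10.7%, and Kv4, Kv3 and Kv1 held 9.08%, 8.19% and 7.87%. The single BK gene Kcnma1 held 2.26% and the SK and IK genes 1.86%. The 16 auxiliary genes together held 8.53% ± 0.48 of the level in control, 8.61% ± 0.28 in PA and 8.67% ± 0.41 in PA + PS2 (SD, n = 3). The share of Kv7 was 23.5% when gene length was taken as the longest transcript, and Kv7 stayed the largest subfamily.

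**Figure D2:**
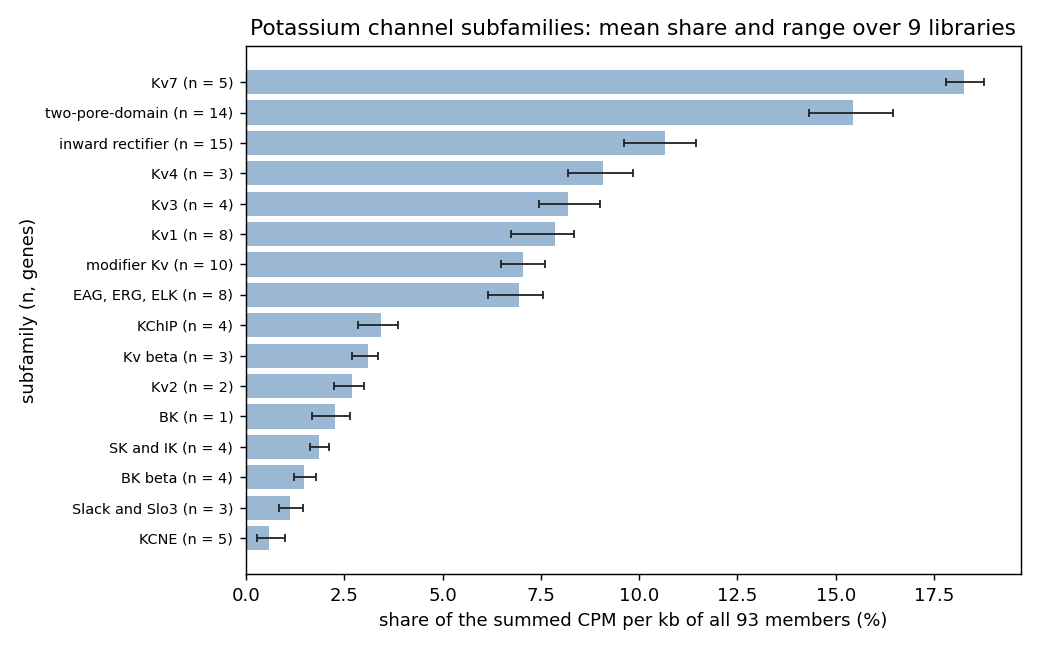
Share of each subfamily in the summed CPM per kb of all 93 members (horizontal axis, percent); bars are means over 9 libraries and whiskers run from the lowest to the highest library. Kv7 and K2P lead, with mean shares of 18.2% and 15.4%.

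Among inward rectifiers Kcnj4, a strongly rectifying Kir2 gene, had the highest mean, at 8.69 ± 1.37 CPM per kb. Another Kir2 gene, Kcnj2, at 6.58 ± 0.683 CPM per kb, lay level with Kcnj3, a subunit of the G-protein-gated GIRK channels, at 6.53 ± 1.66. Kcnj11, the pore of ATP-sensitive channels, stood at 4.98 ± 0.883 CPM per kb, whereas Kcnj8, the pore of the vascular form, had 6 reads in all. Among auxiliary genes Kcnab2, a Kv beta subunit, led with 7.28 ± 0.696 CPM per kb. Kcnip2, a calcium-binding KChIP that accompanies Kv4, had the highest mean of its family on this scale, at 3.44 ± 0.618. Before scaling by length another KChIP gene had more reads in all, 3205 against 2534 for Kcnip2. Kcnh2, the ERG channel that is known for cardiac repolarisation, stood at 5.71 ± 0.722 CPM per kb. Kcnn1, an SK channel of the afterhyperpolarisation, stood at 2.79 ± 0.475, Kcnmb2, a BK beta subunit, at 2.35 ± 0.352, and Kcnt1, a sodium-activated channel, at 1.55 ± 0.382. Kcnu1, known as the sperm channel Slo3, had 3.08 to 4.71 CPM in the 9 libraries, with no other annotated exon overlapping its own.

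Of the 93 members 64 had a mean of at least 1 CPM, 41 of at least 10 CPM and 5 of at least 100 CPM. Kcne1, Kcnj1 and Kcnk16 had 0 counts in all libraries, which allows up to 0.110 to 0.145 CPM per library (3 counts over the unscaled total, counting error only). The filter on low counts kept 70 members, and the 23 left out had at most 15 reads in any library. Exons of 26 members overlap an annotated antisense gene, and the strand setting of the counting is not stated, so reads of the 2 strands cannot be told apart there. Among the members with values here this holds for Kcnq5, Kcnk2, Kcnd3, Kcnk1, Kcnma1, Kcnj3, Kcnn1, Kcnn2, Kcnq1 and Kcng2, and Kcnab2 overlaps a gene on its own strand.

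The first comparison set PA against control and so concerns the peptide scaffold without PS2. By the edgeR quasi-likelihood test 0 of the 70 tested members passed at an adjusted p under 0.05, against 0.0% of all 15712 genes, and 0 passed with DESeq2 or with the repeat number as a block. At an unadjusted p under 0.05 there were 2 members, both higher, where the share over all genes was 1.22%, with 0.554% higher and 0.668% lower. The median log2 fold change of the members was 0.02, beside −0.01 for all genes, with 40 members above 0 and 30 below, beside 47.2% of all genes above 0. The 41 members of at least 10 CPM lay between −0.23 and 0.38, and the standard errors of all members between 0.10 and 0.66.

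The members with the smallest p-values differed little. Kcnn2, an SK channel subunit, had 10.6, 11.5 and 12.5 CPM in control and 12.5, 16.5 and 14.8 CPM in PA. Its lowest PA library lay at the level of the highest control library, and the log2 fold change was 0.34 ± 0.14 (SE; edgeR adjusted p = 1). Kcng1, a silent modifier of Kv2, had 14.5, 15.2 and 14.3 CPM in control and 22.5, 15.7 and 17.3 CPM in PA. These groups did not overlap, and the log2 fold change was 0.34 ± 0.15 (edgeR adjusted p = 1). Kcna3 stood at 0.38 ± 0.19, Kcnd1, the least abundant Kv4 gene, at 0.34 ± 0.19 and Kcnj2 at −0.21 ± 0.12 (edgeR adjusted p = 1 for each). Groups did not overlap for 3 members, Kcng1 and Kcnj14 higher and Kcnj2 lower in PA, beside 4.04% of all genes, 1.97% higher and 2.07% lower.

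The second comparison set PA + PS2 against the same control libraries and concerns the scaffold with both components. By the edgeR test 0 of 70 members passed, against 0.0446% of all genes, and 5 members had an unadjusted p under 0.05, 1 higher and 4 lower, where the share over all genes was 5.63%, with 1.09% higher and 4.54% lower. With the repeat block 0 members passed, against 1.17% of all genes, and with DESeq2 1 member, Kcne1l, passed, against 1.43%. The median log2 fold change was −0.02, beside 0.00 for all genes, with 32 members above 0 and 38 below, beside 49.8% of all genes above 0. Within 0.5 of 0 on the log2 scale lay 67 of the 70 members, or 95.7%, and 88.5% of all genes. The 41 members of at least 10 CPM lay between −0.41 and 0.38. The exceptions were Kcne1l and Kcnj10, both lower, and the low-count gene Kcng2, at 0.83 ± 0.65 and under 1 CPM in every library.

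No subunit of the M-current or the A-type current passed against control, and the A-type gene Kcnd3 lay lower without overlap. Kcnq3 stood at 0.18 ± 0.16 and Kcnq5 at −0.14 ± 0.12 in PA + PS2 against control (edgeR adjusted p = 1 for each). Kcnd2 stood at −0.12 ± 0.11 (edgeR adjusted p = 1). Kcnd3 had 103, 113 and 107 CPM in control, 82.6, 111 and 97.5 CPM in PA and 87.3, 93.4 and 91.4 CPM in PA + PS2. All 3 PA + PS2 libraries lay below all 3 controls, with a log2 fold change of −0.25 ± 0.11 (edgeR adjusted p = 0.84), while PA overlapped both groups. Of the 4 KChIP partners of Kv4, 3 lay above 0 and 1, Kcnip3, lay below. Kcnip2 stood at 0.38 ± 0.18 (edgeR adjusted p = 0.93), without overlap of the groups. Kcnip3, also known as the transcriptional repressor DREAM, stood at −0.41 ± 0.19 (edgeR adjusted p = 0.88). Kcnip3 had 8.59, 13.6 and 10.8 CPM in control and 8.66, 8.44 and 7.61 CPM in PA + PS2, which overlap.

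Several genes of other classes stood near 0, and some lay further away. In PA + PS2 against control the log2 fold change was 0.09 ± 0.11 for Kcnf1, −0.08 ± 0.14 for Kcnma1 and −0.01 ± 0.10 for Kcnk10 (edgeR adjusted p = 1 for each). It was 0.07 ± 0.15 for Kcnh2, 0.05 ± 0.13 for Kcnk2, −0.04 ± 0.13 for Kcnk1, 0.03 ± 0.13 for Kcnab2 and 0.04 ± 0.20 for Kcnmb2 (edgeR adjusted p = 1 for each). For Kcnj4, Kcnj3 and Kcnt1 it was −0.09 ± 0.18, −0.15 ± 0.29 and −0.04 ± 0.27 (edgeR adjusted p = 1 for each). Kcnc1 stood at 124, 122 and 119.7 CPM in control and 108, 113 and 107 CPM in PA + PS2. Its groups did not overlap, and the log2 fold change was −0.15 ± 0.10 (edgeR adjusted p = 1). Kcng1 was at 0.35 ± 0.15 (edgeR adjusted p = 0.77) and Kcnn1 at 0.35 ± 0.18 (edgeR adjusted p = 1), again without overlap. In all, 8 members lay higher and 5 lower in PA + PS2 without overlap of the groups, beside 5.38% and 6.54% of all genes, or 11.9% in either direction.

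**Figure D3:**
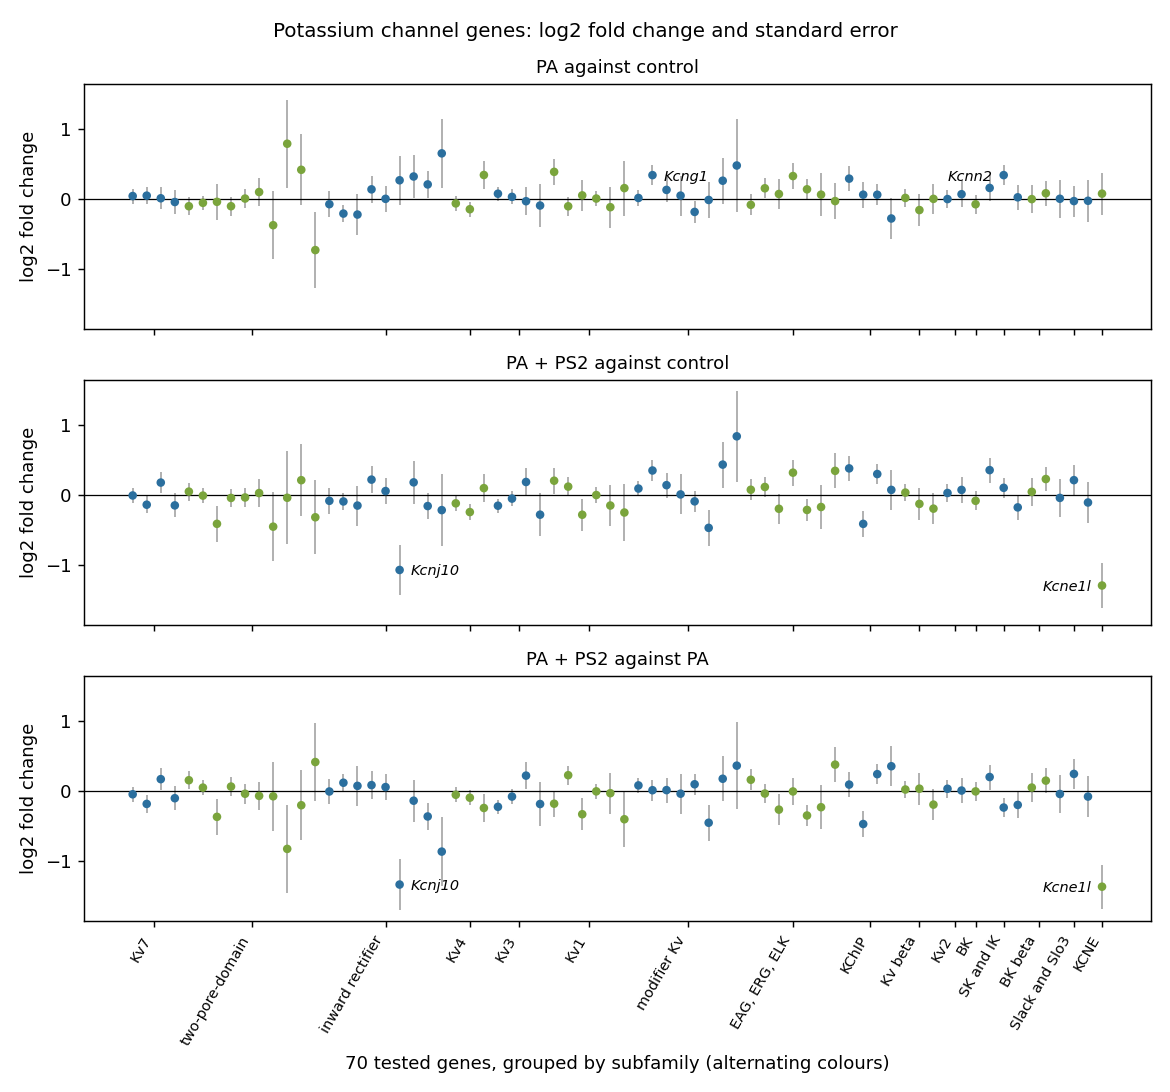
Log2 fold change (points) with its standard error (bars) of the 70 tested members in the 3 comparisons, grouped by subfamily along the horizontal axis; the 2 members with the smallest p are named in each panel. Most points lie within 0.5 of 0, and Kcnj10 and Kcne1l lie near or below −1 in both comparisons of PA + PS2.

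Kcnj10 encodes Kir4.1, the inward rectifier with which astrocytes and oligodendrocyte precursors take up potassium around neurons (ENSMUSG00000044708, mm10 chromosome 1, 172341210 to 172374085). It had 3.74, 12.6 and 10.3 CPM in control repeats 1, 2 and 3, 9.81, 12.8 and 9.28 CPM in PA and 3.27, 5.09 and 4.24 CPM in PA + PS2. All PA + PS2 libraries lay below all PA libraries, but control repeat 1 lay among the PA + PS2 values. The log2 fold change was −1.07 ± 0.36 in PA + PS2 against control (edgeR adjusted p = 0.45; blocked edgeR adjusted p = 0.11) and −1.33 ± 0.36 against PA (edgeR adjusted p = 0.36; blocked edgeR adjusted p = 0.051). The blocked p is from the fit with repeat number as a block. Without control repeat 1 it passed in both, at −1.44 against control (edgeR adjusted p = 0.013) and −1.33 against PA (edgeR adjusted p = 0.038). Control libraries enter the comparison with PA only through the filter, the scaling and the spread, which all libraries share. The fold change against PA thus stayed at −1.33, while its standard error went from 0.36 to 0.21. Without control repeat 2 Kcnj10 stood at −0.72 and without PA + PS2 repeat 1 at −0.91 against control (edgeR adjusted p = 1 for each). Over 15 alternatives the log2 fold change ran from −1.44 to −0.72 against control and from −1.50 to −1.16 against PA, and it passed in 3 of them in each comparison. With DESeq2 it passed against PA (adjusted p = 0.027) and did not against control (adjusted p = 0.12).

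Markers of astrocytes differed between the same libraries, and their part in the Kcnj10 result was not tested. In control repeat 1 the astrocyte markers summed to 173 CPM, against 250 and 289 CPM in the other controls. Of the 8 tested astrocyte markers 6 lay below 0 in PA + PS2 against control, with a median of −0.16, and 7 lay below 0 against PA, with a median of −0.77. In each, 0 passed. Gja1, the gap junction protein of astrocytes, had 6.24, 13.6 and 14.5 CPM in control, 10.2, 12.1 and 10.2 CPM in PA and 5.68, 5.36 and 5.41 CPM in PA + PS2. Its PA + PS2 libraries lay below all others, at −1.06 ± 0.26 against control (edgeR adjusted p = 0.18). Slc1a2, a glutamate transporter of astrocytes, stood at −0.07 ± 0.12 against control (edgeR adjusted p = 1). Gfap, an intermediate filament of astrocytes, pointed the other way, with 0.0822, 0.869 and 1.52 CPM in control and 0.866, 2.85 and 4.53 CPM in PA + PS2. These groups overlapped, at 1.76 ± 0.69 (edgeR adjusted p = 0.65), and against PA it stood at 0.21 ± 0.63 (edgeR adjusted p = 1). Of the 8 markers of the oligodendrocyte lineage 6 lay below 0 in PA + PS2 against control, with a median of −0.88, and with the repeat block 3 of them passed. Against PA 4 lay below 0 and 4 above, with a median of −0.73, and with the block 3 passed. Their sum ran from 59.9 to 85.6 CPM in control, from 67.0 to 77.4 CPM in PA and from 50.5 to 72.1 CPM in PA + PS2, and the groups overlapped. None of these markers was at 0 in all libraries.

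Kcne1l, also known as Kcne5, encodes a single-pass KCNE subunit that modulates Kv channels (ENSMUSG00000090122, mm10 chromosome X, 142304752 to 142306294). It had 1.97, 2.83 and 4.10 CPM in control, 2.92, 3.94 and 2.48 CPM in PA and 1.25, 1.08 and 1.29 CPM in PA + PS2. Every PA + PS2 library lay below every library of the other groups. The log2 fold change was −1.29 ± 0.32 against control (edgeR adjusted p = 0.17; blocked edgeR adjusted p = 0.099) and −1.36 ± 0.32 against PA (edgeR adjusted p = 0.26; blocked edgeR adjusted p = 0.094). Without control repeat 1 it passed against control (−1.52, edgeR adjusted p = 0.044), and with DESeq2 it passed in both (adjusted p = 0.023 and 0.022). Without control repeat 3 it stood at −0.99 against control (edgeR adjusted p = 0.66). Over 15 alternatives the log2 fold change ran from −1.54 to −0.99 against control and from −1.50 to −1.14 against PA, and it passed in 3 and 2 of them. Of the other KCNE genes, Kcne2 and Kcne4 had at most 12 and 7 reads in any library. The sum of the pericyte and fibroblast markers given above was likewise lower in each PA + PS2 library than in the other 6, with 8 of 8 tested members below 0 against control and a median of −1.68, 4 of them passing with the repeat block. Sums of 3 other marker lists separated in the same way. The 7 markers of dividing progenitors summed to 164 to 331 CPM in control, 212 to 293 CPM in PA and 131 to 155 CPM in PA + PS2, and 7 of 7 lay below 0 against control, 4 of them passing with the block. The 6 endothelial markers summed to 2.08 to 4.43 CPM in PA + PS2 and to at least 4.96 CPM in the other libraries, and the 6 microglial markers to 3.32 to 4.24 CPM and at least 4.74 CPM. Single genes of these small sums went both ways. Of the 3 tested endothelial markers 2 lay below 0 and 1 above, against control and against PA. Of the 5 tested microglial markers 4 lay below 0 and 1 above against control, and 3 below and 2 above against PA. The part of these lists in the Kcne1l and Kcnj10 results was not tested.

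**Figure D4:**
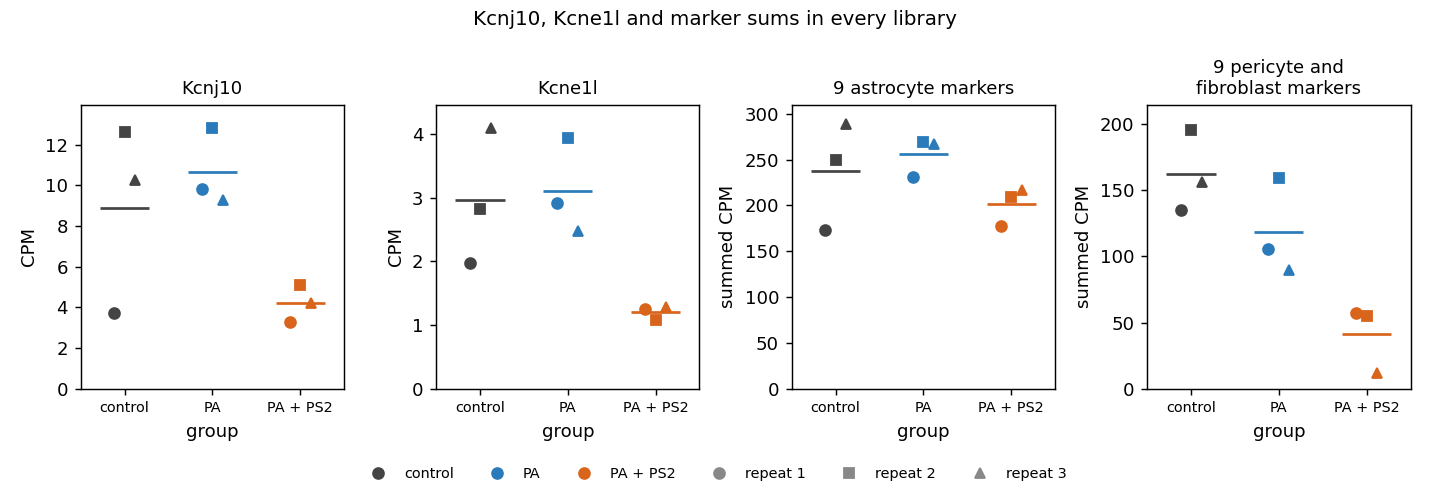
CPM of Kcnj10 and Kcne1l and summed CPM of the astrocyte markers and of the pericyte and fibroblast markers (vertical axes) in every library, by group, with the group mean as a line and the repeat as the symbol. PA + PS2 libraries lie between 3.27 and 5.09 CPM for Kcnj10 and between 1.08 and 1.29 CPM for Kcne1l; control repeat 1 has 3.74 CPM of Kcnj10.

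The third comparison set PA + PS2 against PA and concerns the addition of PS2, and it shares its libraries with both of the others. By the edgeR test 0 of 70 members passed, against 0.0% of all genes, with 5 members at an unadjusted p under 0.05, where the share over all genes was 5.61%. All 5 were lower in PA + PS2, where 4.58% of all genes were lower and 1.03% higher at that level. With the repeat block 0 members passed, against 0.363% of all genes, and with DESeq2 Kcnj10 and Kcne1l passed, against 0.815%. The median log2 fold change was −0.03, beside 0.01 for all genes, with 30 members above 0 and 40 below, beside 51.4% of all genes above 0. After Kcne1l and Kcnj10 came Kcnip3 at −0.47 ± 0.19 (edgeR adjusted p = 0.73), Kcnh5, an EAG channel, at −0.35 ± 0.15 (edgeR adjusted p = 0.83) and Kcnc1 at −0.23 ± 0.10 (edgeR adjusted p = 0.83). Kcnh5 had 12.1, 12.6 and 11.5 CPM in PA and 8.99, 10.02 and 9.40 CPM in PA + PS2, without overlap. In all 1 member, Kcna6, lay higher and 5 lower without overlap, beside 3.32% and 6.32% of all genes, or 9.64% in either direction.

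At the level of subfamilies, the summed CPM per kb of all members was 307 ± 6.60 in control, 309 ± 2.55 in PA and 300 ± 3.51 in PA + PS2 (SD, n = 3). The Kv7 sum in PA was 1.02 times that of control and in PA + PS2 0.98 times, and the K2P sums were 0.96 and 0.94 times, with overlapping groups. The Kv4 sum in PA + PS2 was 0.90 times that of control and the SK and IK sum 1.13 times, both without overlap, and the SK and IK sum in PA was also 1.13 times that of control. The KCNE sum, 87.7% of it from Kcne1l, was 0.47 times that of control and of PA, also without overlap. For all other subfamilies, of 16 looked at, the PA + PS2 and control sums overlapped. Of all single genes 11.9% did not overlap in that comparison. These sums are descriptions and were not tested.

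Differences between repeat numbers exceeded those between groups for most channel genes. Of the variance of log2(CPM + 0.1) over the 9 libraries, a median of 40.3% lay between repeat numbers and 17.3% between groups over the 70 tested members, beside 40.6% and 16.0% over all genes. The repeat share was the larger in 46 members, or 65.7%, beside 70.4% of all genes. Kcnb2, a Kv2 subunit, had 21.03, 22.3 and 22.5 CPM in repeat 1 of control, PA and PA + PS2, 23.1, 26.6 and 29.3 CPM in repeat 2 and 32.5, 31.2 and 28.6 CPM in repeat 3. Its lowest library in every group was repeat 1, and 81.3% of its variance lay between repeats. Kcnc4, a Kv3 subunit, had 3.87, 4.10 and 4.57 CPM in repeat 3 and 7.19, 5.85 and 5.10 CPM in repeat 1, and 80.7% of its variance lay between repeats. Kcna2 and Kcna1, Kv1 subunits of axons, had 86.4% and 80.6% of their variance between repeats. Kcnk9 was highest in repeat 2 of each group, at 159, 179 and 109.9 CPM, against 72.9 to 115 CPM in the other 6 libraries. What the repeat numbers mark is not stated.

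**Figure D5:**
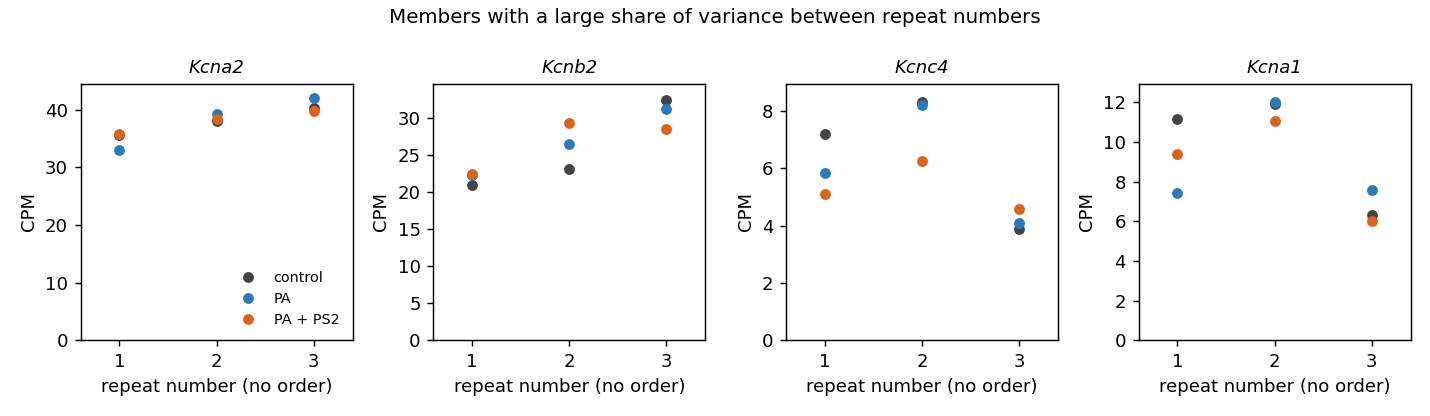
CPM (vertical axis) against repeat number (horizontal axis, without order) of 4 members with a large share of variance between repeat numbers, coloured by group. The 3 groups lie close together in some repeats, as for Kcnb2 with 21.03 to 22.5 CPM in repeat 1.

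Partner genes of potassium channels, a list of 31 that includes clustering proteins, KATP and Kv4 partners, calmodulins and the related HCN channels, were read beside the members. In each comparison 0 of the 27 tested partners passed, and the medians were −0.03 for PA against control, 0.03 for PA + PS2 against control and 0.05 for PA + PS2 against PA. Ank3, the ankyrin that anchors Kv7 channels at the axon initial segment, had the smallest p against PA, at −0.34 ± 0.11 (edgeR adjusted p = 0.49), and stood at −0.15 ± 0.11 against control (edgeR adjusted p = 1). Lrrc26, a BK gamma subunit with about 1.02 CPM, stood at −1.05 ± 0.37 in PA + PS2 against PA (edgeR adjusted p = 0.59). Against control, PA + PS2 gave −0.21 ± 0.11 for Dlg1, a scaffold protein that binds Kv1, and −0.52 ± 0.38 for Lrrc26, and PA gave 0.19 ± 0.11 for Ank3 and 0.53 ± 0.36 for Lrrc26 (edgeR adjusted p = 1 for each).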

How the data were processed

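The authors deposited a file of unnormalised gene counts (Ensembl identifiers) for each library. The submitters' processing notes list STAR 2.7.5, HTSeq 2.0.2, cutadapt 4.2, mm10 and DESeq2 1.14.1, without roles. The annotation, the strand setting and any filter are not given in the sources used here. The molecule label reads polyA RNA and the extraction text total RNA. Names, types, exons and coding sequences came from GENCODE M21 (mm10), which matched 54165 of 54232 identifiers.

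Counts were tested with edgeR 4.0.16 in R 4.3.3 (quasi-likelihood F test, 2-sided, all 9 libraries, 6 residual degrees of freedom, trimmed mean of M values). filterByExpr (minimum count 10, minimum total 15) left 15712 genes and 99.9% of the counts; a member needed the minimum in only some libraries. P-values were adjusted by Benjamini and Hochberg over all genes tested. Fold changes carry standard errors, levels standard deviations. CPM per kb divides CPM by the union of exons. Alternatives were DESeq2 1.42.0 and those in the last section. The test was checked on simulated counts, with the same spread for every gene and no difference between repeats. It recovered 92% of 2-fold and 100% of 4-fold changes there. The libraries do differ between repeats, so these shares do not give the power in the real data.

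Named members were those that passed, the highest of each subfamily, the 20 highest and the 5 of smallest p per comparison; named partner genes had the 3 smallest p. Some genes and sequences that this rule would name are not reported here. Kcnq1, Kcnj8, Kcnj11, Kcnj14, Kcnu1, Kcng2, Kcne2, Kcne4, Kcna1, Kcna6, Kcna2, Kcnb2, Kcnc4, the genes at 0 and the markers are named outside this rule, with their values already seen. Members, lists and tests were chosen with earlier results of these data known.

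Deviations of same-numbered libraries from their group means correlated at 0.42, 0.37 and 0.28 (PA and control) and 0.18, 0.22 and 0.13 (PA + PS2 and control). For PA + PS2 and PA the correlations were 0.015, 0.29 and 0.30. The fit with the repeat block is given as an alternative in each comparison.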

Additional observations from a re-analysis of the deposited data

How the results depend on the processing

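Of 1395 values of named members under the alternatives, 1384 kept their call and 11 came to pass, all of Kcnj10 or Kcne1l in PA + PS2, and none reversed. Members passing in PA + PS2 against control numbered 0; they were 2 without the filter on low counts, 1 with DESeq2 and 1 with repeats 2 and 3 only, a setting chosen after seeing the data, and 0 to 2 with a library left out (2 without control repeat 1). Against PA they numbered 0; they were 2 without the filter, 2 with DESeq2 and 0 to 1 with a library left out (1 without control repeat 1). All genes passing in PA + PS2 against control numbered 7; they were 17 with RLE size factors, 365 without the filter, 224 with DESeq2, 184 with the replicate block, 28 with only the 2 groups, 125 with repeats 2 and 3 only and 0 to 175 with a library left out (175 without control repeat 1, 18 without PA repeat 1, 2 and 1 without PA + PS2 repeats 2 and 3, and 0 without control repeat 2, control repeat 3 or PA + PS2 repeat 1). Against PA they numbered 0; they were 330 without the filter, 128 with DESeq2, 57 with the block, 3 with repeats 2 and 3 only and 0 to 37 with a library left out (37 without control repeat 1 and 2 without PA + PS2 repeat 2). For PA against control, 23 genes and 0 members passed without the filter, and 0 to 0 with a library left out. Control libraries enter the comparison of PA + PS2 with PA only through the shared filter, scaling and spread. The block changed no call of a member. The cause was not tested. Of 16 subfamily shares 12 moved by more than their spread with the longest transcript, and of 48 subfamily sums 1 moved with plain library totals, that of BK in PA + PS2 (113 CPM). Depth limits the members under 1 CPM.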
